A study of Mus musculus with 13 samples.

Results

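The 8 genes described here, out of 24470 in the count table, are Nodal, its inhibitors Lefty1 and Lefty2, the receptor Acvr2b, the signal carriers Smad2, Smad3 and Smad4, and the DNA-binding partner Foxh1. They were chosen by gene symbol as a signalling pathway, and all 8 were found, each in 1 row. The cells were E14 mouse embryonic stem cells, a line of 129/Ola background that carries no stated transgene, grown in GMEM with 15% fetal bovine serum and leukemia inhibitory factor. In the low-input protocol the transposase Tn5 cut the open chromatin of permeabilized cells, and polyadenylated RNA was then drawn from the same lysate on oligo-dT beads, which gave an ATAC and an mRNA library from the same cells. Experiment 1 used 10000 and 20000 cells, and experiment 2, on another day, used 5000, 10000 and 20000 cells. Omni-ATAC, the benchmark, was run with 5000, 10000 and 50000 cells, 1 library each. No library was treated, so the comparisons below are between experiments and between cell numbers. The labels do not say whether the cells of 1 experiment came from separate cultures, and the p-values measure only the spread between these libraries, which may be technical.

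Nodal is a secreted ligand of the TGF-beta superfamily. With a co-receptor such as Tdgf1 (Cripto) it binds a complex of type I and type II activin receptors, which phosphorylates Smad2 and Smad3. These join Smad4 and act in the nucleus with DNA-binding partners, of which Foxh1 is one. Nodal, Lefty1 and Lefty2 are themselves targets of the pathway, and the Lefty proteins block it outside the cell, so the pathway holds both a positive and a negative feedback. Mouse embryonic stem cells in serum and leukemia inhibitory factor are known to make Nodal and Lefty RNA, and the pathway patterns the early embryo.

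The 250 bases before the start site are shown for Nodal, Acvr2b and Smad3, which differ in how many lists held a promoter peak, as described below. They are the 3 members matched in a RefSeq table of promoter sequences (GRCm38.p6, the mm10 assembly), and the other 5 are named only. Each reads from 5′ to 3′ on the gene's own strand, and capitals mark the bases that lay inside a peak in at least 4 of the 8 ATAC peak lists. The Nodal sequence is chr10:61417722-61417971 on the plus strand, the Acvr2b sequence is chr9:119401928-119402177 on the plus strand, and the Smad3 sequence is chr9:63757995-63758244 on the minus strand.
Nodal: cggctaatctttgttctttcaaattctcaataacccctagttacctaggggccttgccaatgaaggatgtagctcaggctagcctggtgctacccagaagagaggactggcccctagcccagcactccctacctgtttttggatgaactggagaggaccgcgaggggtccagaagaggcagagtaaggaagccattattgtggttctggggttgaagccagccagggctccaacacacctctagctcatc
Acvr2b: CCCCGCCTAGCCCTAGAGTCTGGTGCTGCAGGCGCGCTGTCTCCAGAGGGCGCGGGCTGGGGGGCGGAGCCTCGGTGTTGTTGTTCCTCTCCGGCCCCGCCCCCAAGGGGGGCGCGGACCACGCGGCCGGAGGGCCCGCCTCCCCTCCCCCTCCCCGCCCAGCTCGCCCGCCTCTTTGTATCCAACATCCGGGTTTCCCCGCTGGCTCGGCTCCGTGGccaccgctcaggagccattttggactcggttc
Smad3: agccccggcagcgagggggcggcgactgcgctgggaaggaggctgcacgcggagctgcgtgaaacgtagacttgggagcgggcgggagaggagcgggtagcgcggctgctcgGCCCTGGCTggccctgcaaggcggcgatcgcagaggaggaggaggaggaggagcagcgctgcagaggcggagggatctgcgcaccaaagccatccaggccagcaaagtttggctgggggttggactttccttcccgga
The Acvr2b stretch had 218 of 250 bases in capitals and the Smad3 stretch 9, a single short block that was inside a peak in up to 5 lists. RefSeq's gene table places the earliest start of Acvr2b 595 bp further upstream, so by that start the printed stretch lies inside the gene. The start of Smad2 differs likewise, by 611 bp. No base of the Nodal stretch lay in a peak of any list. Their GC contents were 72.8% for Acvr2b, 69.2% for Smad3 and 53.2% for Nodal, and the median over 32851 promoter stretches of the same length was 52.4%. Both strands were searched for AATNNACA (Foxh1), CAGAC and GTCTAGAC (SMAD, where the longer word does not contain the shorter one) and ATTTGCAT (Oct). The only match was CAGAC in Acvr2b, which reads GTCTG on the printed strand and begins 233 bases before the start site. Its first base lay in a peak of all 8 lists, and all of its bases in 7. Of all 32851 stretches 42.2% held CAGAC, 10.9% AATNNACA, 1.6% ATTTGCAT and 0.167% GTCTAGAC, and a match is given as letters only, not as a bound site.

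The 5 mRNA libraries held between 13727122 and 20426252 counts each, so that 3 counts, the limit that a count of 0 allows, were 0.147 to 0.219 CPM (counts-per-million, with the library's total as the base). The cells' label was checked against markers: all 8 stem cell genes averaged at least 10 CPM and summed to 2571 to 2820 CPM in a library. Markers of other cells were low but not equal between the experiments. The 8 fibroblast genes summed to 33.3 and 35.9 CPM in experiment 1 and 8.57 to 10.0 CPM in experiment 2. Most of that was Thy1, with 29.2 and 33.9 CPM in experiment 1 and 6.77 to 9.78 CPM in experiment 2, while Col3a1 and Lum were at 0 in every library. The 7 primitive endoderm genes summed to 11.6 and 15.5 CPM against 2.69 to 2.84 CPM, the 5 mesendoderm genes to 1.68 and 3.41 against 3.16 to 4.41 CPM, and the 5 trophoblast genes to 29.4 and 30.3 against 24.5 to 25.7 CPM. In these bulk libraries, fewer cells of a type and less RNA per cell cannot be told apart. CPM is not divided by transcript length, so levels are compared between libraries and not between genes.

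Nodal was the 1 member whose difference between the experiments passed the test, with less RNA in experiment 2. It had 60.6 CPM (95% Wilson interval 56.6 to 64.9, counting error only) from 10000 cells and 57.7 CPM (54.0 to 61.7) from 20000 cells in experiment 1. In experiment 2 it had 28.6 CPM (26.2 to 31.3) from 5000 cells, 28.8 CPM (26.2 to 31.6) from 10000 cells and 45.5 CPM (42.7 to 48.5) from 20000 cells. Every library of experiment 2 lay below both libraries of experiment 1, and within experiment 2 the library from 20000 cells stood well above the other 2. The fitted libraries, those from 10000 and 20000 cells, averaged 59.1 ± 2.07 CPM in experiment 1 and 37.1 ± 11.8 CPM in experiment 2 (SD, n = 2), a log2 fold change of -0.67 ± 0.17 (SE), or 0.629-fold, with an adjusted p of 0.0116 (edgeR quasi-likelihood test, Benjamini-Hochberg over 12523 genes). The size depended on which libraries of experiment 2 were used. Without the one from 10000 cells the change was -0.37 ± 0.18 and no longer passed (adjusted p = 0.275, edgeR), and with the 5000 cell library in its place it was -0.63 ± 0.18 and passed (adjusted p = 0.0438, edgeR). Without the 20000 cell library of experiment 2 it was -1.03 (adjusted p = 0.00159, edgeR). A fit that leaves out a library has 1 library in an experiment, which is assumed to vary like those of the other, and this holds for every such fit below. The adjusted p ran from 0.000769 to 0.275 over the alternatives. The fibroblast and primitive endoderm sums given above were lower in the same libraries, and their part in the Nodal difference was not tested. The median change of the 324 genes of chromosome 10 with at least 10 CPM, the chromosome of Nodal, was -0.03. Any link between it and the Nodal change was not tested.

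**Figure D1:**
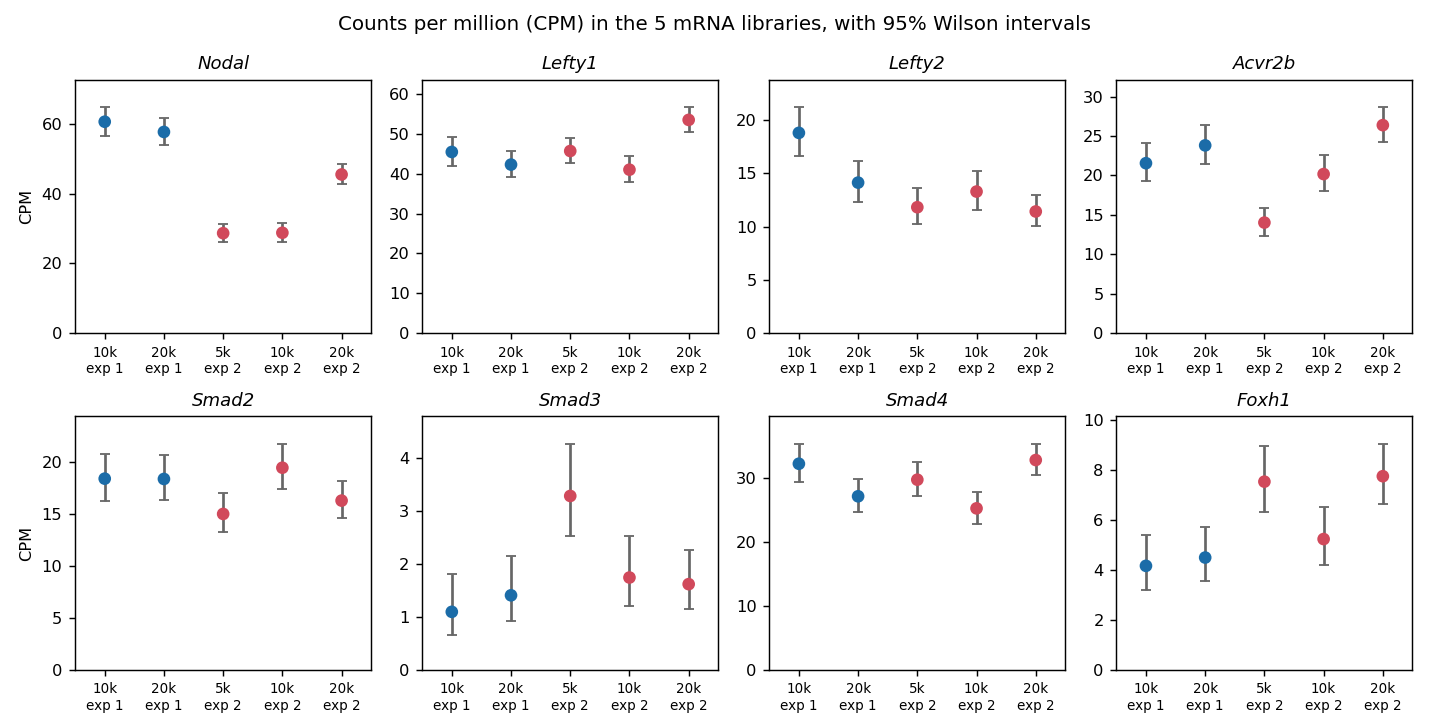
Levels in CPM (vertical axis) of each of the 8 genes in the 5 mRNA libraries (horizontal axis, with the number of cells and the experiment), experiment 1 in blue and experiment 2 in red, with bars for 95% Wilson intervals that cover counting error only. Nodal is lower in all 3 libraries of experiment 2 (28.6 to 45.5 CPM) than in experiment 1 (57.7 and 60.6 CPM), whereas the ranges of Lefty1, Acvr2b, Smad2 and Smad4 overlap.

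Lefty1 and Lefty2, the feedback inhibitors, showed no difference between the experiments that passed. Lefty1 had 45.5 and 42.3 CPM in experiment 1 (10000 then 20000 cells) and 45.7, 41.0 and 53.5 CPM in experiment 2 (5000, 10000 then 20000 cells). Its ranges overlapped, and the highest value was the library from 20000 cells of experiment 2. The change was 0.11 ± 0.16 on the log2 scale (adjusted p = 0.728, edgeR). Lefty2 had 18.8 and 14.1 CPM in experiment 1 and 11.8, 13.3 and 11.4 CPM in experiment 2. All 3 values of experiment 2 were below both of experiment 1, but the library from 20000 cells of experiment 1 lay close to the highest of experiment 2. The change was -0.41 ± 0.23 (adjusted p = 0.258, edgeR), which did not pass. Lefty1 and Lefty2 are close paralogs, and how reads that match both were counted is not given in the sources used here, so the split between them is uncertain.

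Acvr2b, a type II receptor that binds Nodal and activins, had 21.6 and 23.8 CPM in experiment 1 and 14.0, 20.2 and 26.4 CPM in experiment 2. The lowest value was the library from 5000 cells and the highest that from 20000 cells, both of experiment 2, so experiment 1 lay inside the range of experiment 2. The change over the 4 fitted libraries was 0.04 ± 0.19 (adjusted p = 0.934, edgeR), and its sign turned to -0.14 ± 0.20 when the 5000 cell library was added.

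The SMADs gave values with no difference between the experiments that passed the test. Smad2, phosphorylated by the activated receptors, had 18.4 and 18.3 CPM in experiment 1 and 15.0, 19.4 and 16.3 CPM in experiment 2, with a change of -0.04 ± 0.20 (adjusted p = 0.936, edgeR). Experiment 1 lay inside the range of experiment 2. Smad4, the shared partner of the receptor-activated SMADs, had 32.3 and 27.2 CPM in experiment 1 and 29.8, 25.3 and 32.9 CPM in experiment 2, with a change of -0.03 ± 0.18 (adjusted p = 0.95, edgeR). The 20000 cell library was the lower one in experiment 1 and the higher one in experiment 2. Smad3 was near the limit of useful counting, with 15 and 21 counts in experiment 1 and 55, 27 and 33 counts in experiment 2. These were 1.09 and 1.41 CPM against 3.28, 1.74 and 1.62 CPM. The 5000 cell library was the highest, and its 95% Wilson interval (2.52 to 4.27 CPM) did not reach the value of any other library. The fitted change was 0.42 ± 0.70 (adjusted p = 0.765, edgeR).

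Foxh1, the forkhead factor that brings SMADs to DNA, had 57 and 67 counts in experiment 1 and 126, 81 and 158 counts in experiment 2. These were 4.15 and 4.48 CPM against 7.52, 5.22 and 7.74 CPM. Every library of experiment 2 was above both of experiment 1, although the interval of the library from 10000 cells (4.20 to 6.49 CPM) covered the 4.48 CPM of experiment 1. The change was 0.59 ± 0.35 (adjusted p = 0.3, edgeR) and did not pass. The 313 genes of chromosome 15 with at least 10 CPM, the chromosome of Foxh1, had a median change of -0.26. Any link between it and the Foxh1 change was not tested.

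Of the 8 members, all of which passed the filter on low counts, 1 fell, 0 rose and 7 did not pass the test between the experiments. Over all genes tested 12.5% passed (1567 of 12523), with 6.76% lower and 5.75% higher in experiment 2, so 1 of 8 is near the share of genes in general. The count of 1567 fell to 1018 without the 10000 cell library of experiment 1, to 803 without that of experiment 2 and to 869 without the 20000 cell library of experiment 2. The members' median log2 change was 0.01, and that of all tested genes was 0.00. The CPM ranges of the experiments did not overlap over the 5 libraries for 4 members (Nodal, Lefty2, Smad3 and Foxh1), and this held for 41.5% of all tested genes, so it is no mark of these 4. In simulated counts the test between the experiments recovered 47.7% of 2-fold changes (12282 genes) and 97.5% of 4-fold changes (12279 genes).

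Cell number made no difference that passed for any member. Between 10000 and 20000 cells, 0% of all genes passed with edgeR (0 of 12523, with 101 at an unadjusted p under 0.05), and DESeq2 called 0 as well (60 at an unadjusted p under 0.05). The log2 changes of the members, 20000 against 10000 cells, ran from -0.35 for Lefty2 to 0.37 for Foxh1, with 0.19 ± 0.36 for Nodal and 0.13 ± 0.21 for Lefty1 (adjusted p = 0.999 for each member, edgeR). Within experiment 2 Nodal differed by 0.66 on the log2 scale between 20000 and 10000 cells, beyond counting error (95% interval 0.50 to 0.82), and within experiment 1 by -0.07 (-0.21 to 0.07). The comparison of cell numbers used the same 4 libraries as that of the experiments. In it the simulation recovered 0% of 2-fold changes (12203 genes) and 66.8% of the 4-fold ones (12272 genes), as fitted without a block. With the experiment as a block, which narrowed the error, 4 of 12523 genes passed with edgeR (566 at an unadjusted p under 0.05). None of them was a member. The simulation was not run for the fit with the block. In that fit the Nodal log2 change was 0.27 ± 0.16 and did not pass either (adjusted p = 0.998, edgeR).

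At 5000 cells there was 1 mRNA library, and its differences from the others were not tested. Against the mean of the other libraries of experiment 2, on the log2(CPM + 1) scale, it was lower by -0.68 for Acvr2b, -0.33 for Nodal and -0.23 for Smad2. It was higher by 0.68 for Smad3 and 0.21 for Foxh1. Lefty1 (-0.04), Lefty2 (-0.06) and Smad4 (0.05) lay close to the mean of the other 2 libraries. Nodal at 5000 cells lay inside the interval of the library from 10000 cells and below that from 20000 cells, so the mean of those 2 stands for neither.

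The rest of the pathway was read from a list of 38 other genes, of which 27 passed the filter on low counts. Between the experiments 1 of the 27 rose (Gdf3), 2 fell (Pmepa1 and Fst) and 24 did not pass, again against 12.5% of all genes. The median log2 change of the 27 was -0.14, beside 0.00 for all genes. Cell number changed 0 of the 27 by edgeR's test.

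Gdf3, a ligand related to Nodal that uses the same co-receptor, had 60.0 and 57.8 CPM in experiment 1 and 119, 114 and 129 CPM in experiment 2. All 3 libraries of experiment 2 were far above experiment 1, and the 5000 cell library lay between the other 2. The change was 1.05 ± 0.13, or 2.07-fold (adjusted p = 5.55e-06, edgeR), and it passed under each alternative run. Nodal and Gdf3 therefore moved in opposite directions between the same libraries. Of the other 5 ligands on the list, 3 were tested and did not pass, and Inhba and Gdf1 were too low to test, Gdf1 with 0 counts in all 5 libraries.

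Pmepa1, which encodes a membrane protein that sequesters receptor-activated SMADs and is itself induced by TGF-beta signalling, had 35.8 and 36.1 CPM in experiment 1 and 18.1, 13.7 and 19.3 CPM in experiment 2. The experiments were far apart, and the library from 10000 cells of experiment 2 was the lowest. The change was -1.12 ± 0.19, or 0.461-fold (adjusted p = 0.000223, edgeR), and it passed under each alternative run. Fst, which encodes follistatin, a secreted protein that binds activins, had 24 and 58 counts in experiment 1 and 21, 12 and 7 counts in experiment 2. These were 1.75 and 3.88 CPM against 1.25, 0.774 and 0.343 CPM. The change was -2.35 ± 0.75 (adjusted p = 0.0396, edgeR). Leaving out each library moved the change from -3.01 to -1.63. The call was lost with cell number as a block (adjusted p = 0.0508), with the 5000 cell library added (0.124) or substituted for the 10000 cell library of experiment 2 (0.236), without the 20000 cell library of experiment 1 (0.439), without that of experiment 2 (0.256) and without the 10000 cell library of experiment 2 (0.0852), all with edgeR. The last 3 of these fits have 1 library in an experiment.

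**Figure D2:**
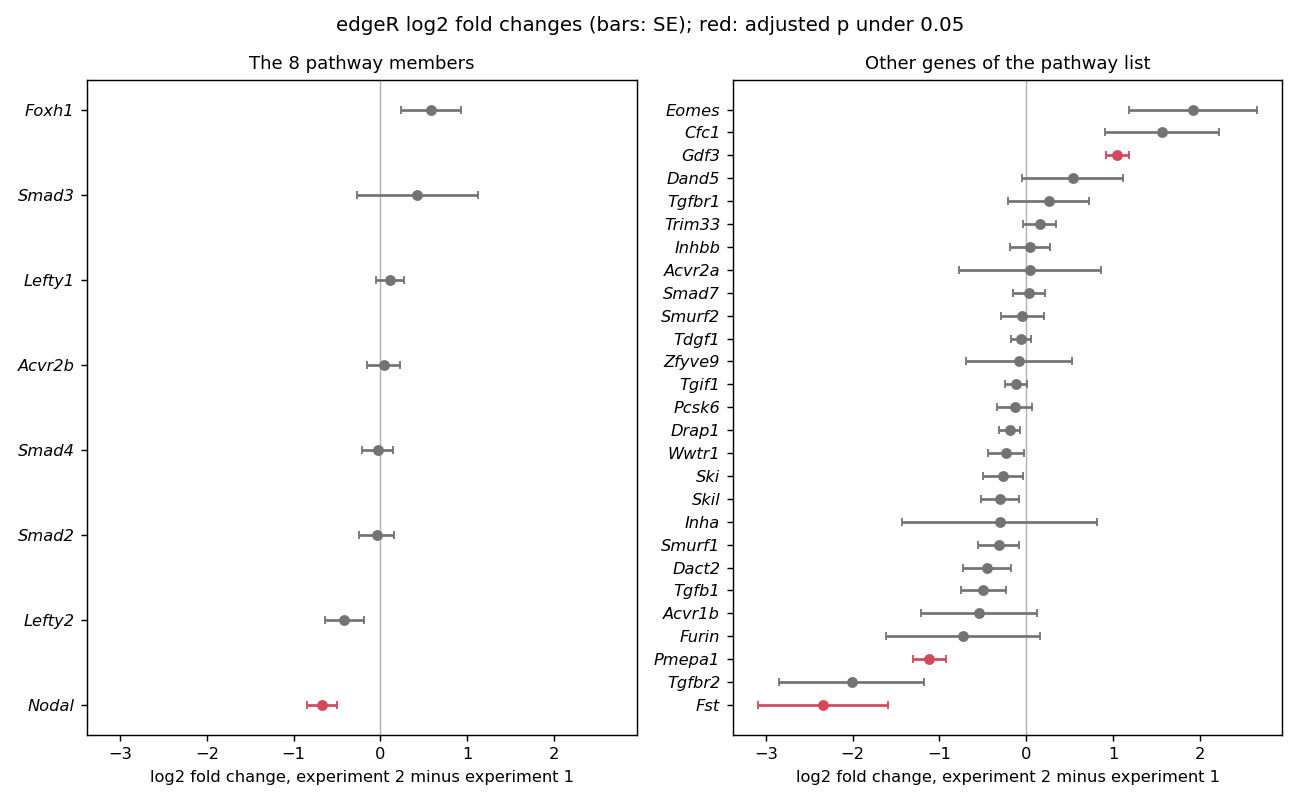
Log2 fold changes of experiment 2 against experiment 1 (horizontal axis, edgeR, bars are standard errors) for the 8 members on the left and for the 27 tested genes of the wider pathway list on the right, with adjusted p under 0.05 in red. Nodal (-0.67) is the lowest member and the 1 in red, and Gdf3 (1.05), Pmepa1 (-1.12) and Fst (-2.35) are in red on the right.

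Tdgf1, the Nodal co-receptor, had 425 and 431 CPM in experiment 1 and 356, 420 and 399 CPM in experiment 2, with a change of -0.06 ± 0.11 (adjusted p = 0.788, edgeR). All 3 libraries of experiment 2 were below both of experiment 1, and the 5000 cell library was the lowest, but the change did not pass. Acvr1b, the type I receptor ALK4, was at low counts, with 2.77 and 1.87 CPM against 1.31, 2.58 and 0.636 CPM, and a change of -0.54 ± 0.67 (adjusted p = 0.675, edgeR). Its values overlapped between the experiments.

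Smad7, an inhibitory SMAD, had 42.8 and 29.1 CPM in experiment 1 and 28.5, 39.3 and 34.0 CPM in experiment 2, with a change of 0.03 ± 0.18 (adjusted p = 0.946, edgeR). Skil, which encodes the SMAD corepressor SnoN, had 18.5 and 17.2 CPM against 16.2, 16.9 and 12.0 CPM, with a change of -0.31 ± 0.22 (adjusted p = 0.418, edgeR). Neither passed, and the 12 intracellular partners and regulators gave 1 call, Pmepa1. Cer1, a secreted Nodal antagonist of the embryo, was at 0 in 4 libraries and 0.0490 CPM, under the limit of 3 counts, in the fifth. Among targets known from the embryo, Mixl1, Gsc, T, Foxa2 and Fgf8 were too low to test. Eomes, another such target, named here after its values were seen, had 0.364 and 0.870 CPM in experiment 1 and 0.656, 2.64 and 2.11 CPM in experiment 2 and did not pass (1.92 ± 0.74, adjusted p = 0.0928, edgeR).

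The genes whose levels followed those of the ligand and its inhibitors most closely were found by the root mean square difference of centred log2(CPM + 1) over the 5 libraries, among the 6485 genes that averaged 10 CPM or more. For Nodal they were Pld3 (0.068), Fbxo2 (0.079) and Ercc4 (0.084). Pld3 had 59.3 and 56.1 CPM in experiment 1 and 31.2, 31.2 and 46.6 CPM in experiment 2, the same order of experiments and the same high library from 20000 cells. For Lefty1 they were Haus7 (0.028), Pole (0.029) and Polr3e (0.035), and for Lefty2 Polr3b (0.032), Snrpd3 (0.043) and Trnt1 (0.045). Lefty2 was not among the nearest 3 of Lefty1, nor either of them among those of Nodal. With 5 libraries such likeness is a description only.

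Open chromatin was read from 8 lists of peaks, 1 per ATAC library, which give positions without heights or scores. The lists differed in length, from 9097 peaks (Omni-ATAC, 5000 cells) to 95457 (Omni-ATAC, 50000 cells), and the low-input lists held 18637 to 49508. Their sequencing depth is unknown, so a missing peak is not evidence of closed chromatin. Between 24.4% and 59.2% of the peaks of a list were 9 bp wide, the shortest width. A peak within 1000 bp of the start site, the 5′ end of the gene in the count table, is called a promoter peak, and 18.6% to 61.1% of all genes had one in a given list.

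Promoter peaks differed widely among the members. Acvr2b and Smad2 had one in all 8 lists, Smad3, Smad4 and Foxh1 in 6, Nodal in 4, and Lefty1 and Lefty2 in 0. Among the 5101 genes with a mean of 10 to 100 CPM, which includes both Lefty genes, 4.27% (218) had none in any list and 31.6% had one in all 8, with a median of 7 lists. Over all genes 38.4% had none and 14.8% had one in all 8. At a distance of 2500 bp Lefty1 had a peak in 4 lists, Lefty2 in 2 and Nodal in 7. With peaks of at least 50 bp alone, Acvr2b had one in 5 lists, Smad2 in 7, Smad3 and Smad4 in 4 each, and Nodal and Foxh1 in 1 each, the list from 50000 cells.

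The covered length varied between lists for each member. For Acvr2b (chr9:119402178-119442148, plus strand) peaks covered 39, 39, 75, 483 and 481 bp of the promoter window in the low-input lists (10000 and 20000 cells of experiment 1, then 5000, 10000 and 20000 cells of experiment 2), and 9, 265 and 713 bp in the Omni-ATAC lists from 5000, 10000 and 50000 cells. For Smad2 (chromosome 18, plus strand) they covered 39, 163, 163, 293 and 574 bp, then 137, 188 and 1067 bp. Both were covered in every list and most widely in the longest list.

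For Smad3 (chr9:63646767-63757994, minus strand) the lengths were 0, 160, 0, 9 and 152 bp, then 9, 160 and 497 bp. For Smad4 (chromosome 18, minus strand) they were 9, 9, 204, 0 and 209 bp, then 0, 432 and 565 bp. For Foxh1 (chr15:76668224-76669948, minus strand) they were 14, 9, 0, 9 and 49 bp, then 0, 18 and 542 bp, so in 7 of the 8 lists Foxh1 had under 50 bp. RefSeq places the start of Foxh1 1666 bp further upstream, near a region at -1.6 kb that 7 lists held and that also lies at the start site of Ppp1r16a, a neighbouring gene. From the RefSeq start 7 lists held a peak within 1000 bp, and that peak cannot be assigned to Foxh1 rather than Ppp1r16a. The gene lies in a dense stretch with 9 other start sites within 50 kb. Without stated strand use in the counting, reads of overlapping neighbours cannot be told apart there.

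For Nodal (chr10:61417972-61425337, plus strand) the lengths were 0, 0, 0, 14 and 16 bp, then 0, 19 and 299 bp. The 4 lists with a Nodal promoter peak were the 4 longest lists, and only the list from 50000 cells covered more than 19 bp. In that list the peak nearest to the start site began 12 bp inside the gene. The Omni-ATAC list from 10000 cells also held a 9 bp peak centred at -353 bp, further upstream than the Nodal stretch printed above.

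**Figure D3:**
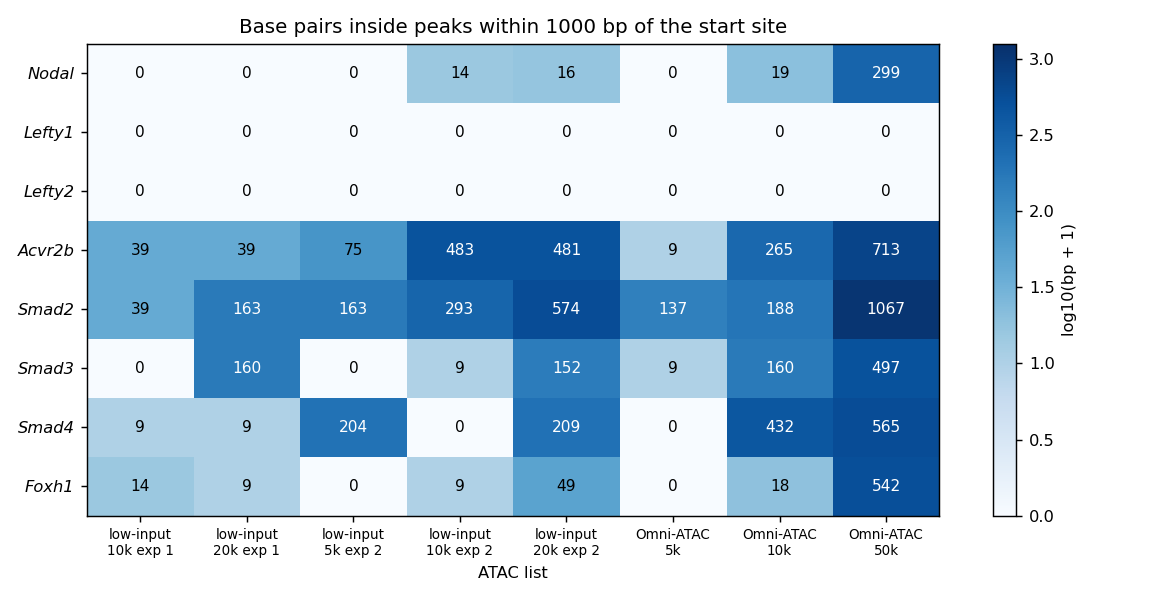
Base pairs inside peaks within 1000 bp of the start site (number in each cell, with the shade giving log10 of the value plus 1) for the 8 genes (rows) in the 5 low-input and 3 Omni-ATAC lists (columns). Acvr2b and Smad2 are covered in all 8 lists, Lefty1 and Lefty2 read 0 in every list, and Nodal exceeds 19 bp in the list from 50000 cells alone.

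Away from their promoters the ligand and the inhibitors had peaks in nearly every list. A region at chr10:61415610-61416868, centred at -1.7 kb from the Nodal start site (minus is upstream), was in 7 of the 8 lists. Peaks covered 203, 316, 207, 282 and 264 bp of it in the low-input lists and 203 and 1259 bp in the Omni-ATAC lists from 10000 and 50000 cells. The Omni-ATAC list from 5000 cells, the shortest, did not hold it.

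A further region, chr10:61399339-61399654, centred at -18.5 kb from Nodal, was in 5 lists with 104 and 77 bp in experiment 1, 213 and 112 bp from 10000 and 20000 cells of experiment 2, and 316 bp in the Omni-ATAC list from 50000 cells. Inside the gene, 5.5 kb after the start site, a region was in 3 lists. Enhancers described for Nodal include a nearby upstream element bound by pluripotency factors and an intronic element bound by Foxh1, and whether these regions match them was not tested. In all, 18 regions lay within 50 kb of Nodal, and the 1 held by all 8 lists was at the start site of Eif4ebp2, 34.9 kb away. Nodal had 3, 7, 2, 6 and 10 peaks within 50 kb in the low-input lists and 1, 7 and 16 in the Omni-ATAC lists, where the median gene had 1, 2, 1, 2 and 4, then 1, 2 and 6.

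Lefty1 (chr1:180935039-180938401) and Lefty2 (chr1:180893108-180899107) lie on the plus strand with start sites 41.9 kb apart, and 15 regions fall within 50 kb of both. Those regions were therefore not assigned to 1 of the pair. The region nearest to Lefty2 that all 8 lists held was chr1:180888530-180889453, centred at -4.1 kb from its start site. Peaks covered 419, 355, 330, 348 and 513 bp of it in the low-input lists and 20, 259 and 924 bp in the Omni-ATAC lists. A further region at chr1:180873988-180874360, at -18.9 kb from Lefty2, was also in all 8 lists, with 121 to 284 bp in the low-input lists and 9, 286 and 364 bp in the Omni-ATAC lists.

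Before Lefty1, regions at chr1:180924695-180925201 (-10.1 kb) and chr1:180919659-180919972 (-15.2 kb) were each in 7 lists. The first had 9, 329, 122, 409 and 507 bp in the low-input lists and 0, 60 and 409 bp in the Omni-ATAC lists, so the library from 10000 cells of experiment 1 held only the shortest peak there. A small region at -1.2 kb from Lefty1 was in 4 lists, with its nearest edge 1099 to 1192 bp from the start site, just outside the promoter window. Lefty1 had 5, 10, 9, 10 and 12 peaks within 50 kb in the low-input lists and 1, 11 and 20 in the Omni-ATAC lists. Lefty2 had 6, 8, 9, 8 and 10, then 3, 9 and 17. Both were above the median gene in each list except that Lefty1 equalled it, with 1 peak, in the Omni-ATAC list from 5000 cells. The medians here and for Nodal are over all 24470 genes, of which 12957 averaged under 1 CPM. The 15 regions within 50 kb of both Lefty genes count for each of them.

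**Figure D4:**
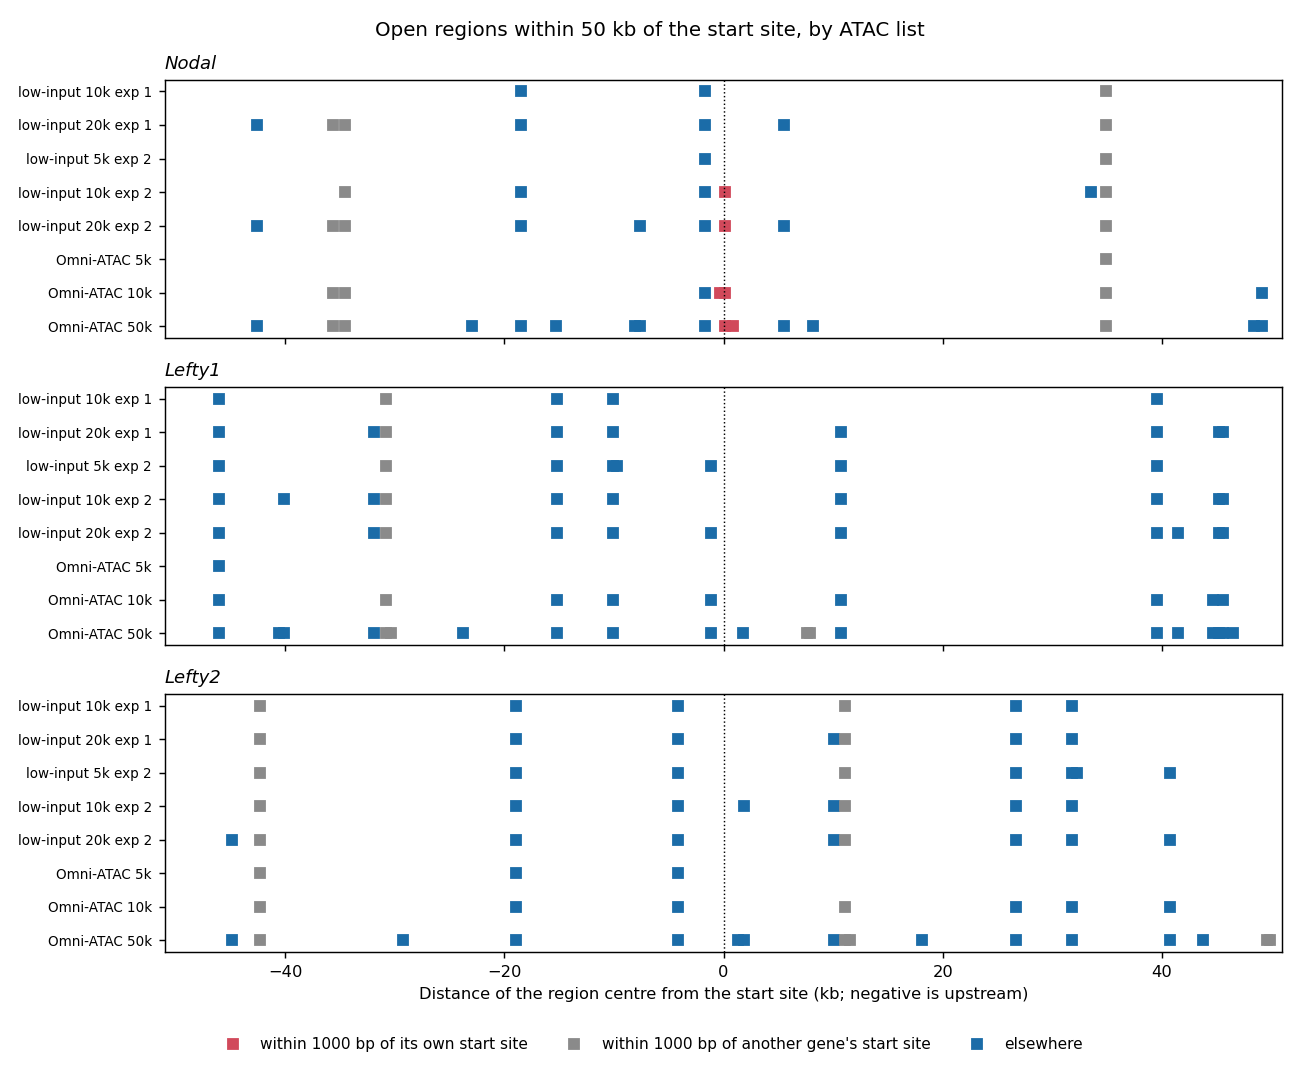
Merged open regions within 50 kb of the start sites of Nodal, Lefty1 and Lefty2 (horizontal axis, distance in kb, negative is upstream) in each of the 8 ATAC lists (rows), in red within 1000 bp of the gene's own start site, in grey within 1000 bp of another gene's and in blue elsewhere. Blue regions at -4.1 and -18.9 kb from Lefty2 appear in all 8 lists and the one at -1.7 kb from Nodal in 7, while no red region appears for Lefty1 or Lefty2.

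How common such upstream regions are was counted over all genes, with the distances chosen after these values were seen. Merging the 8 lists gave 107851 regions, of which 5222 were in all 8 and 59373 in 1. Of those in all 8 lists, 2155 lay further than 1000 bp from any start site, and 0.711% of genes (174) had one within 5 kb upstream, Lefty2 among them. In at least 7 lists there were 5036 such regions, and 1.52% of genes (372) had one within 5 kb upstream, Lefty2 and Nodal among them. Within 50 kb on either side, 14.6% of genes (3584) had a region in all 8 lists, Foxh1, Lefty1 and Lefty2 among them. For regions in at least 7 lists it was 27.4% of genes (6716), with 6 members among them. Since the 5 kb distance was set by these genes, these shares are a description.

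The SMADs had fewer regions within 50 kb than Nodal, Lefty1, Lefty2 and Foxh1, and no other start site there. With promoter peaks included, Smad2 had 2, 4, 3, 2 and 3 peaks in the low-input lists. In the Omni-ATAC lists it had 1, 3 and 7. Smad3 had 1, 2, 1, 2 and 3, then 1, 3 and 8. Smad4 had 1, 1, 1, 0 and 1, then 0, 1 and 4. The median gene had 1, 2, 1, 2 and 4, then 1, 2 and 6. Smad4 had 4 regions within 50 kb, Smad2 8 and Smad3 10, beside 22 for Lefty1, 19 for Lefty2, 18 for Nodal, 8 for Acvr2b and 24 for Foxh1. For Smad3 a region at -45.4 kb (chr9:63803227-63803573) was in 7 lists, with 211 to 281 bp in the low-input lists and 156 and 347 bp in the Omni-ATAC lists from 10000 and 50000 cells. It was in 1 list more than the Smad3 promoter. Acvr2b had a comparable region at the edge of the window, at -49.9 kb, in 7 lists with 11 to 87 bp in the low-input lists.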

How the data were processed

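The series holds 5 mRNA and 8 ATAC libraries of mouse cells. The authors deposited whole-number gene counts with mm10 coordinates per the file headers, and peaks as intervals without scores. The submitters' processing notes name cutadapt, Bowtie2 2.1.0, SAMtools 1.3.1, Picard, bedtools 2.24.0, MACS2 2.1.1, STAR 2.5, featureCounts and Subread 1.5.0-p1, without roles. Strand setting, multi-mapping reads and peak thresholds are not given in the sources used here.

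CPM and 95% Wilson intervals were computed from the counts. Differences were tested with edgeR 4.0.16 in R 4.3.3 (TMM, filterByExpr, quasi-likelihood test, adjusted p under 0.05) on 4 libraries, from 10000 and 20000 cells of both experiments. The fits were tested on simulated data with 200 changed genes. Alternatives were RLE factors, library size alone, DESeq2 1.42.0, other filters, a block, the 5000 cell library added or substituted, each library left out, other pseudocounts, windows and peak widths, and RefSeq start sites. The substitution and the RefSeq start sites were chosen after seeing the data. Peaks were compared with Python 3.11.15 and merged where they overlapped or touched.

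The series' design text places the experiments on different days, and the number therefore pairs the 10000 and 20000 cell libraries. Their changes from experiment 1 to 2 had r = 0.562 across 11575 genes, which are not independent replicates.

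The members, the pathway list and the marker lists were chosen with earlier results of these data known. By rule, named with values are the 8 members, the list genes that passed between experiments, Tdgf1, Gdf3, Acvr1b, Cer1, Smad7 and Skil, and the 3 genes most like Nodal, Lefty1 and Lefty2. Eomes, marker genes and list genes too low to test are named outside this rule, after their values were seen.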

Additional observations from a re-analysis of the deposited data

Results flagged for a closer look

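Smad4 differed between cell numbers in opposite directions in the experiments, each time beyond counting error. As log2 ratios of CPM, 20000 minus 10000 cells was -0.25 in experiment 1 and 0.38 in experiment 2. Read across the experiments, experiment 2 minus experiment 1 was -0.35 at 10000 cells and 0.27 at 20000 cells. Each value rests on 1 library against 1, and the difference between them was not tested.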

How the results depend on the processing

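The sign of the Nodal change between experiments held under every alternative, with -1.03 to -0.37 when each library was left out. It did not pass without the 10000 cell library of experiment 2 (-0.37), and the members called were then 0, against 1 otherwise (0 to 1). Leaving out each library gave 803 to 1815 genes called between the experiments, and the 5000 cell library in place of the 10000 cell library of experiment 2 gave 897. The cause was not tested. Without a filter on low counts the median change of all genes moved to 0.12, and Nodal was at -0.64. Between cell numbers, 2 genes were called without that filter. With the replicate block, the experiment number that pairs the libraries, 4 were called, none of them a member or a gene of the pathway list; the block changed no other call. Uncalled members changed sign between experiments with all 5 libraries (Acvr2b -0.14, Smad4 0.023) and with the substituted library (Acvr2b -0.13, Smad4 0.13). Leaving out single libraries turned the sign for Lefty1 (-0.083 to 0.29), Acvr2b (-0.16 to 0.22), Smad2 (-0.17 to 0.10) and Smad4 (-0.22 to 0.15) between experiments. Between cell numbers it did so for Nodal (-0.23 to 0.83), Lefty1 (-0.04 to 0.30), Smad3 (-0.22 to 0.47), Smad4 (-0.10 to 0.24) and Foxh1 (-0.075 to 0.71). Of the alternative fold changes of the 8 members and of Gdf3, Pmepa1 and Fst, 183 kept their sign and side of the threshold, 17 changed sign and 7 lost the call. With the widest 9097 peaks of each list, Nodal and Foxh1 had promoter peaks in 0 lists, and Smad4 in 3. Among the 8 members, depth limits Smad3 and Foxh1 most, and the depth of the ATAC libraries is unknown.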
